A study of Rattus norvegicus with 24 samples.

Results

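This account covers 45 genes whose RNA levels kept the crosses of F1 rats apart in both parts of the nucleus accumbens. They were chosen by CPM, a gene's count per 1000000 counts of its library. In each part, all 4 rats of cross A had to lie above, or all below, all 4 rats of cross B, and in the same direction in the core and the shell. Of 17323 genes in the deposited table, 16246 passed the count filter (a count over 10 in at least 3 libraries) and 46 met the condition, and 1 of these was left out because its mean CPM in core was 1.74 times that in shell. The 45 members comprised 34 genes lower and 11 genes higher in cross A.

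RNA was sequenced in 24 libraries from 8 male rats, each giving 1 library from the nucleus accumbens core (NAc core), 1 from the nucleus accumbens shell (NAc shell) and 1 from the ventral tegmental area (VTA). Cross A (rats 1, 2, 11 and 15) was sired by Fischer (F344) males on Brown Norway (BN) females, and cross B (rats 3, 4, 13 and 16) by BN males on F344 females. The labels give daily injections over 4 days, of 0.4 mg/kg nicotine in 2 rats of each cross and of saline in the other two, which the study's methods do not mention for these animals. All 8 rats, whatever the injection, later had intravenous nicotine at 30 µg/kg per infusion, 10 infusions a session over 6 sessions. By the paper's account, these combined infusions that the rats self-administered with others given passively. Tissue was harvested on day 15, so no rat here was free of nicotine. Regions were dissected by hand, and each library is a whole tissue piece, in which more cells of a type and more RNA per cell cannot be told apart.

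F1 rats of a pair of inbred strains all inherit 1 genome from each strain. Males of reciprocal crosses differ in the parent that supplied each genome: their X chromosome and mitochondria come from the mother, their Y chromosome from the father, and imprinted genes are expressed mainly from the allele of one parent. The VTA holds dopamine neurons that project to the accumbens, and both regions belong to the circuit through which nicotine acts as a reward. The accumbens core is linked mainly with cue-driven action and the shell mainly with the value of rewards. The study compared the crosses because they had differed in nicotine self-administration, to which it found cross A inclined and cross B not. Cross and self-administered intake can therefore not be told apart here.

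The deposited table holds Ensembl gene IDs with no symbols or positions, and the gene table used for reference held 0 of these IDs; no other pairing of IDs and symbols was used here. The members are therefore described by direction and level, 4 of them are given by ID, and neither their functions nor sequences are shown. The labelled regions and cell types were, for the same reason, not checked against known markers. A check from the data alone used 64 genes at least 16-fold higher in the accumbens than in the other 7 VTA libraries. Their summed level was 5173 to 8106 CPM in the accumbens libraries and 192 to 434 CPM in 7 of the VTA libraries, but 2070 CPM in the library labelled VTA A replicate 2. The 69 genes correspondingly high in VTA were in that library at a median of 30.0% of their mean in the other 7, against 69.4% to 109% in each of those 7 relative to the rest of them, and 1 gene made up 2643 of their 3235 CPM in it. Both sets of genes were chosen on those 7 VTA libraries, without VTA A replicate 2, which favours a contrast with it. None of the members (0 of 45) was among the genes of either kind. In VTA A replicate 1, 1 of the VTA-high genes reached 15260 CPM, where the highest such gene had 672 to 2643 CPM in the other VTA libraries. The comparisons in VTA are therefore given with and without VTA A replicate 2. Library totals ranged from 17563458 to 24405856 counts.

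The members were mostly genes of moderate level with small differences between the crosses. Their mean CPM over all libraries ran from 0.314 to 920.1, with a median of 40.9 against 20.2 over the genes that passed the count filter, and 28 of 45 lay above that latter median. In core, 39 of 45 members differed by less than 2-fold between the cross means and 20 by less than 1.2-fold. In shell, these numbers were 38 and 27. For the members lower in cross A, the median log2 ratio of mean CPM (A over B, 0.1 CPM added to each) was -0.25 in core and -0.20 in shell. For those higher in cross A it was 0.50 in core and 0.37 in shell. These values describe what the members were selected on and carry no test. Non-overlap of 4 rats against 4, in either direction, was met by 5.4% of filtered genes in core and by 2.53% in shell, and non-overlap in both parts in 1 direction by 0.283%. A further 4 genes separated the crosses in both parts in opposite directions.

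The threshold fell in a dense range of values. The narrowest members had a lowest value in the higher cross only 1.0014 and 1.0016 times the highest value in the lower cross. The nearest genes outside had ratios of 0.999 and 0.998, and 76 genes had a single pair of rats out of order among the 32 pairs over both parts. The members nearest the limit on core over shell had ratios of 0.707 and 1.39. With CPM on TMM-normalized library sizes 44 genes met the rule, of which 36 were among the 45. With median-ratio size factors 41 met it, of which 33 were among the 45.

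**Figure D1:**
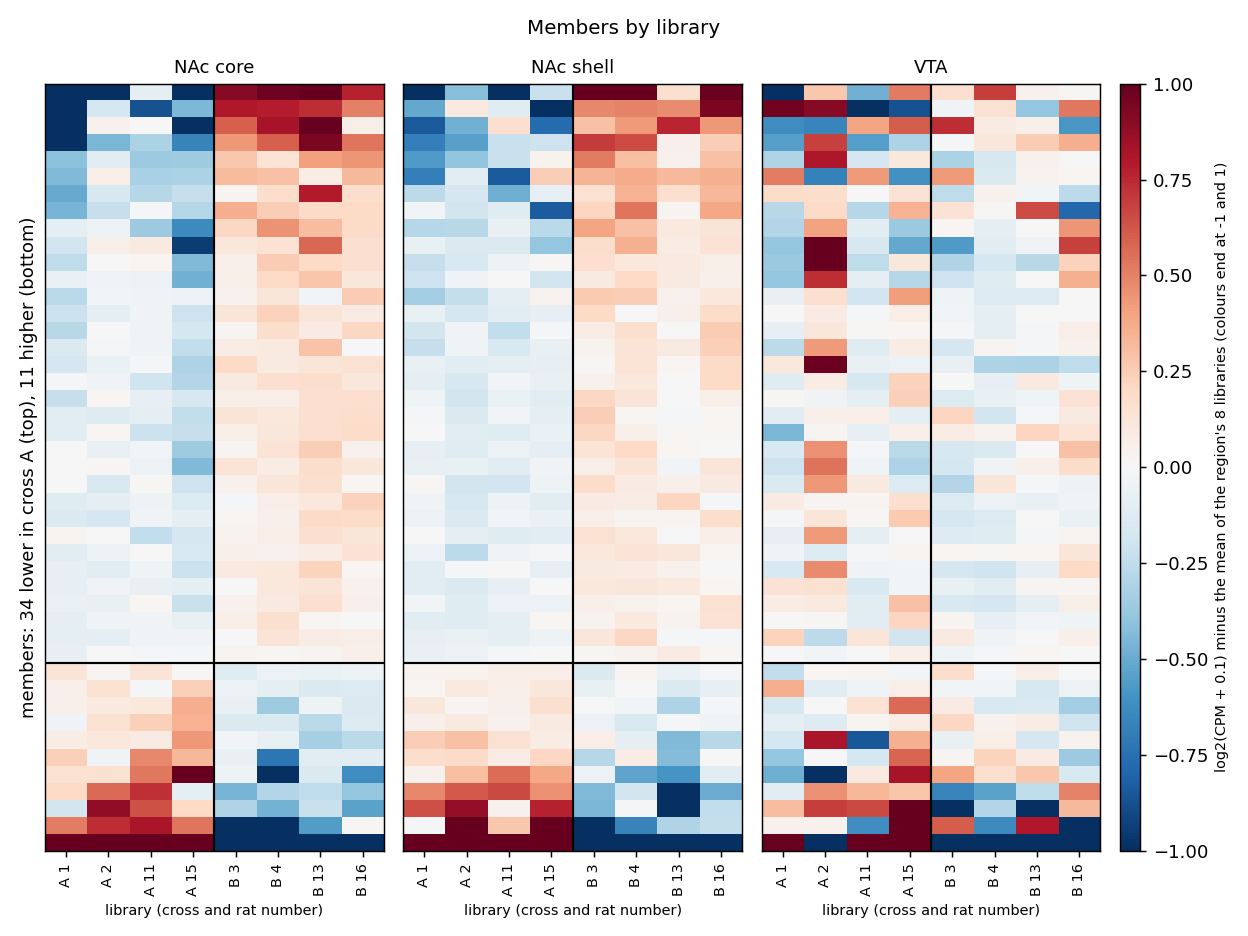
Colour shows log2(CPM + 0.1) of each member (rows) in each library (columns) minus the mean of the 8 libraries of that region, with rows ordered by the mean log2 ratio over core and shell. For the 34 members lower in cross A (top) and the 11 higher (bottom), the crosses do not overlap in core and shell, as the rule required. Colour is relative to the region's mean, so values next to the gap can share a colour across the line between the crosses. No such separation is present across all 8 VTA libraries, apart from 2 lower members that separate in reverse.

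The clearest difference was that of ENSRNOG00000022595, which was present in cross A and had no count in any of the 12 cross B libraries. In core, rats 1, 2, 11 and 15 had 45, 46, 57 and 59 counts, which are 2.56, 2.40, 2.84 and 2.95 CPM. In shell they had 49, 27, 49 and 38 counts, or 2.26, 1.32, 2.35 and 1.94 CPM. The groups were thus apart in both parts, with a cross A mean of 2.69 ± 0.252 CPM in core and 1.97 ± 0.468 CPM in shell (SD, n = 4). Against 3 counts per cross B library these means were at least 16.8-fold and at least 13.2-fold higher. In VTA, rats 1, 11 and 15 of cross A had 60, 52 and 65 counts, or 2.68, 2.13 and 2.88 CPM. The library labelled VTA A replicate 2 had 0 counts, as did the 4 cross B libraries. For this gene that library therefore resembled cross B and went against its label, although the core and shell libraries of rat 2 held 46 and 27 counts.

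Among the other members higher in cross A, ENSRNOG00000057137 had 1.94, 4.18, 3.49 and 2.55 CPM in the core of rats 1, 2, 11 and 15. Rats 3, 4, 13 and 16 of cross B had 1.77, 1.56, 1.88 and 1.49 CPM. The gap between the groups in core was narrow, 1.94 CPM in cross A rat 1 against 1.88 CPM in cross B rat 13. In shell its values were 3.18, 3.76, 2.06 and 3.48 CPM in cross A against 1.43, 1.97, 0.579 and 1.67 CPM in cross B. The cross means differed 1.81-fold in core and 2.21-fold in shell. The other 9 members higher in cross A ranged from 0.314 to 920.1 CPM in mean level. Over the 10 with counts in both crosses, the ratio of means ran from 1.11 to 3.64 in core and from 1.07 to 4.66 in shell. The largest ratio in each part belonged to the member with the lowest mean level of all 45, which had 0 to 9 counts in the accumbens libraries.

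Of the members lower in cross A, ENSRNOG00000002592 was set apart by one of the widest gaps. In core it had 6.43, 9.83, 10.8 and 8.46 CPM in rats 1, 2, 11 and 15, and 18.2, 20.5, 26.1 and 19.6 CPM in rats 3, 4, 13 and 16. In shell it had 11.8, 13.0, 16.3 and 16.5 CPM in the cross A rats, against 30.8, 29.8, 19.7 and 22.6 CPM in the cross B rats. Cross B was 2.37-fold higher in core and 1.79-fold higher in shell, and in shell the nicotine-injected cross B rats 3 and 4 were the highest.

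ENSRNOG00000031222 was more abundant and differed less. Its core CPM was 73.1, 74.9, 60.6 and 50.2 in rats 1, 2, 11 and 15, against 90.5, 107, 97.1 and 89.3 in rats 3, 4, 13 and 16. Its shell CPM was 73.7, 74.0, 85.0 and 74.6 in the former and 118, 110, 95.9 and 98.1 in the latter, again without overlap. Cross B was 1.48-fold higher in core and 1.37-fold in shell. The member with the largest ratio of all those lower in cross A with a mean above 1 CPM had core means of 1.00 ± 0.496 CPM for cross A and 3.64 ± 0.291 CPM for cross B (SD, n = 4), and 0.961 ± 0.548 against 3.98 ± 1.56 CPM in shell.

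**Figure D2:**
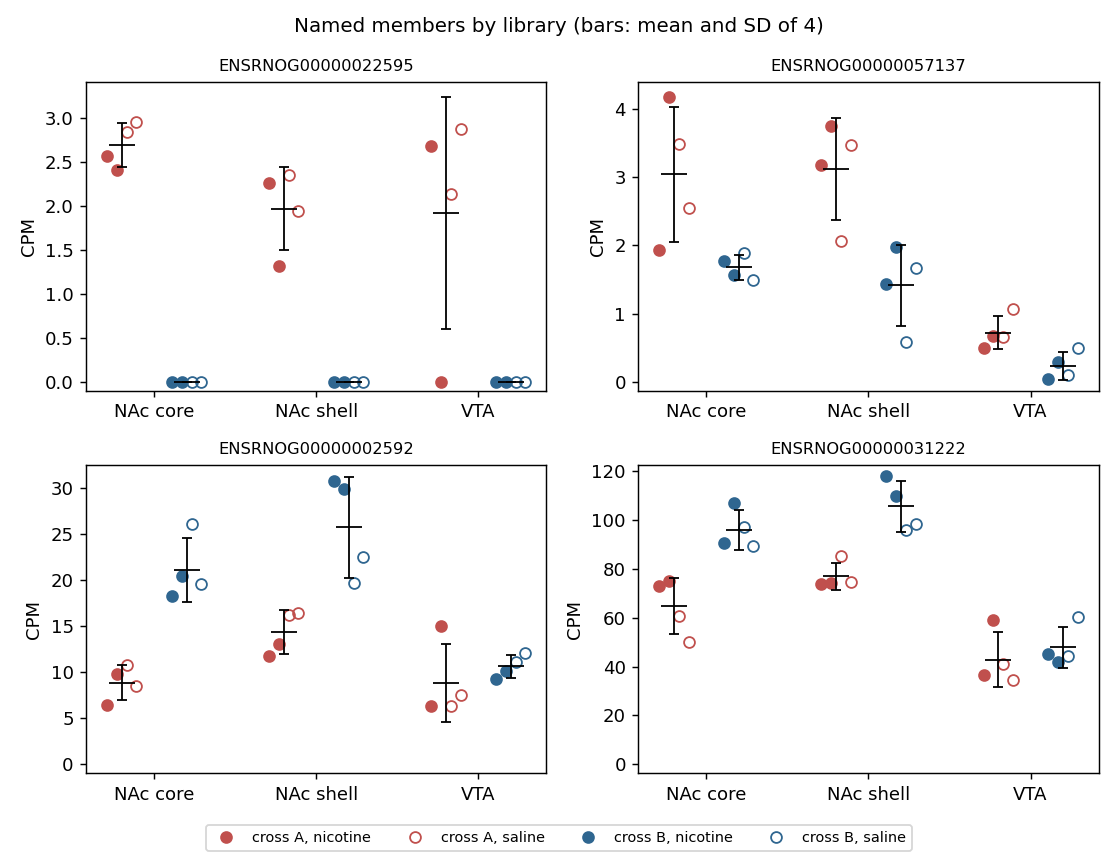
Each point is 1 library's CPM for the 4 members given by ID, by region, with cross A in red, cross B in blue, nicotine-injected rats filled and saline-injected rats open, and black bars for the mean and SD of 4 libraries. In core and shell the crosses do not overlap for any of the 4, while in VTA the point of cross A rat 2 lies at 0 for ENSRNOG00000022595 and at 15.1 CPM, above all cross B points, for ENSRNOG00000002592.

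The libraries of the cross A nicotine rats, of the cross B nicotine rats and of the saline rats were prepared as separate batches, except for VTA A replicate 2 and VTA B replicate 16, which share another batch. The accumbens crosses could therefore be compared within a preparation batch only in the saline-injected rats. There, the members lower in cross A had a median log2 ratio of -0.33 in core and -0.16 in shell, against -0.19 and -0.24 in the nicotine-injected rats, whose crosses were in separate batches. Members higher in cross A had medians of 0.57 in core and 0.47 in shell within the saline batch, and 0.47 and 0.28 in nicotine-injected rats. Of the 34 lower members, 9 in core and 24 in shell had the larger absolute ratio in nicotine-injected rats. The rule fixes the direction of these ratios in every subset of the rats and also selects on their size. They describe the members and cannot show whether a difference between the crosses holds within a batch. No difference between the subsets was tested.

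The VTA libraries came from the same rats, and the difference between the crosses in VTA took no part in choosing the members. The count filter did include them: 43 members passed it on the accumbens libraries alone and 2 only with VTA counts. With all 8 VTA libraries, 0 of 45 members separated the crosses in the accumbens direction and 2 lower members did so in the opposite direction. Across all filtered genes, 2.11% lay fully higher and 1.26% fully lower in cross A in VTA. Without VTA A replicate 2, 1 of 11 higher members (ENSRNOG00000022595) and 2 of 34 lower members (ENSRNOG00000002592 and ENSRNOG00000031222) separated in the accumbens direction. The corresponding backgrounds for 3 libraries against 4 were 4.55% and 3.06%, so these small numbers are close to the background. The number in the accumbens direction also moved under other settings, each with its own background. It was 2 higher members without VTA B replicate 16 (background 4.81%) and 1 without VTA A replicate 1 (background 3.57%). Of the lower members, 2 separated without VTA A replicate 15 (background 2.8%), 1 without VTA B replicate 4 (background 1.89%), 2 with TMM-normalized sizes (background 1.96%) and 2 with median-ratio size factors (background 1.72%). Over all settings with 1 VTA library left out, 2 to 5 of the 34 lower members separated in the opposite direction, where 2.92% to 7.31% of all genes lay fully higher in cross A. The 5 were found without VTA A replicate 11, the setting with the background of 7.31%.

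Both lower members had raised values in VTA A replicate 2, which follows from how they were chosen, since they separated the crosses once that library was left out. ENSRNOG00000002592 had 6.35, 15.1, 6.35 and 7.52 CPM in VTA of rats 1, 2, 11 and 15, and 9.25, 10.1, 11.1 and 12.05 CPM in rats 3, 4, 13 and 16. The value of rat 2 was above every cross B value and the other 3 were below all of them. The edgeR log2 fold change of A over B was -0.31 ± 0.28 (SE, adjusted p = 0.864), and -0.69 without VTA A replicate 2. ENSRNOG00000031222 had 36.4, 59.0, 41.2 and 34.5 CPM in the VTA of cross A rats, against 45.1, 41.8, 44.4 and 60.3 CPM for cross B. Rat 2 was again the highest of cross A, and without it the groups did not overlap. Its log2 fold change was -0.20 ± 0.19 (edgeR adjusted p = 0.869), and -0.39 without VTA A replicate 2. The values without that library are a description, since both genes were named for separating the crosses there.

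By edgeR's quasi-likelihood test with adjustment over 16289 genes, 0 of 45 members passed an adjusted p of 0.05 between the crosses in VTA, where 0% of all genes did. The smallest adjusted p among the members was 0.812. DESeq2 called 1 member, ENSRNOG00000022595 (adjusted p = 0.018), whose adjusted p ranged from 0.018 to 1 over all settings run; DESeq2 called 0.037% of the genes it tested. At an unadjusted p under 0.05, 2 of 11 members higher in cross A were higher in VTA too, against 3.72% of all genes, and 0 of 34 lower members were lower, against 1.98%. They were ENSRNOG00000022595 and ENSRNOG00000057137, and no member passed that level in the opposite direction. Without VTA A replicate 2 the numbers were 2 of 11 higher members (background 4.49%) and 3 of 34 lower members (background 2.76%). In saline-injected rats alone they were 2 of 11 (background 2.23%) and 4 of 34 (background 0.792%). Without VTA A replicate 11, VTA B replicate 13, VTA B replicate 3 or VTA B replicate 4, 1 higher member and 0 lower members passed, against 1.84% to 6.7% and 0.675% to 4.36% of all genes. Without VTA B replicate 16, 3 higher members (background 2.95%) and 0 lower members (1.65%) passed. Without VTA A replicate 15, 1 higher member (3.55%) and 1 lower member (1.98%) passed. In the opposite direction, 1 lower member passed without VTA A replicate 11 (6.7% of all genes higher) and 1 without VTA A replicate 15 (3.55% higher). In nicotine-injected rats alone, 1 higher member passed in the opposite direction (2.35% of all genes lower).

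ENSRNOG00000057137, added to the account after its values were seen, was low in VTA. It had 0.492, 0.672, 0.656 and 1.06 CPM (11, 12, 16 and 24 counts) in rats 1, 2, 11 and 15 of cross A. Cross B rats 3, 4, 13 and 16 had 0.0472, 0.290, 0.0969 and 0.498 CPM (1, 6, 2 and 10 counts). Rat 16 of cross B overlapped rat 1 of cross A by a single pair, the other values being apart. The log2 fold change was 1.58 ± 0.63 (SE, edgeR adjusted p = 0.812), and 1.61 ± 0.69 without VTA A replicate 2 (adjusted p = 0.654). The two-sided exact permutation test of the mean CPM gave p = 0.0571 with all 8 libraries and p = 0.114 without VTA A replicate 2, where 4 against 4 can give no less than 0.0286 and 3 against 4 no less than 0.0571. As the gene was singled out for its VTA values, these p-values describe it and support nothing further. For ENSRNOG00000022595 the VTA mean of cross A was 1.92 ± 1.32 CPM (SD, n = 4), and 2.56 ± 0.386 CPM without replicate 2 (n = 3), at least 13.2-fold and at least 17.6-fold above 3 counts per cross B library. Its exact permutation p was 0.143 with all 8 libraries. No p is given without replicate 2, because the gene was named for its non-overlap there.

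The crosses also did not overlap in VTA for 2 of 34 lower members, but with cross A higher, the reverse of the accumbens. The background for that direction is the 2.11% given above. In core, one of them had means of 20.6 ± 1.81 CPM for cross A and 25.1 ± 0.835 for cross B, and 21.9 ± 0.226 against 24.9 ± 1.55 in shell (SD, n = 4). In VTA it had 11.1, 20.6, 9.83 and 9.91 CPM in rats 1, 2, 11 and 15 and 9.81, 8.32, 8.28 and 8.66 CPM in rats 3, 4, 13 and 16. Its cross A values in VTA were led by replicate 2 and the margin elsewhere was small, 9.83 against 9.81 CPM at the boundary. The other had 66.4 ± 1.70 CPM against 76.3 ± 5.33 in core and 69.4 ± 2.77 against 78.6 ± 5.14 in shell. In VTA its cross A libraries had 58.9, 56.8, 56.8 and 62.6 CPM and its cross B libraries 50.7, 53.5, 53.0 and 54.5 CPM. Both had an edgeR adjusted p of 0.812, with log2 fold changes of 0.52 ± 0.25 and 0.12 ± 0.06 (SE). Without VTA A replicate 2 the log2 fold changes were 0.20 ± 0.13 and 0.13 ± 0.06 (edgeR adjusted p = 0.692 and 0.654).

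**Figure D3:**
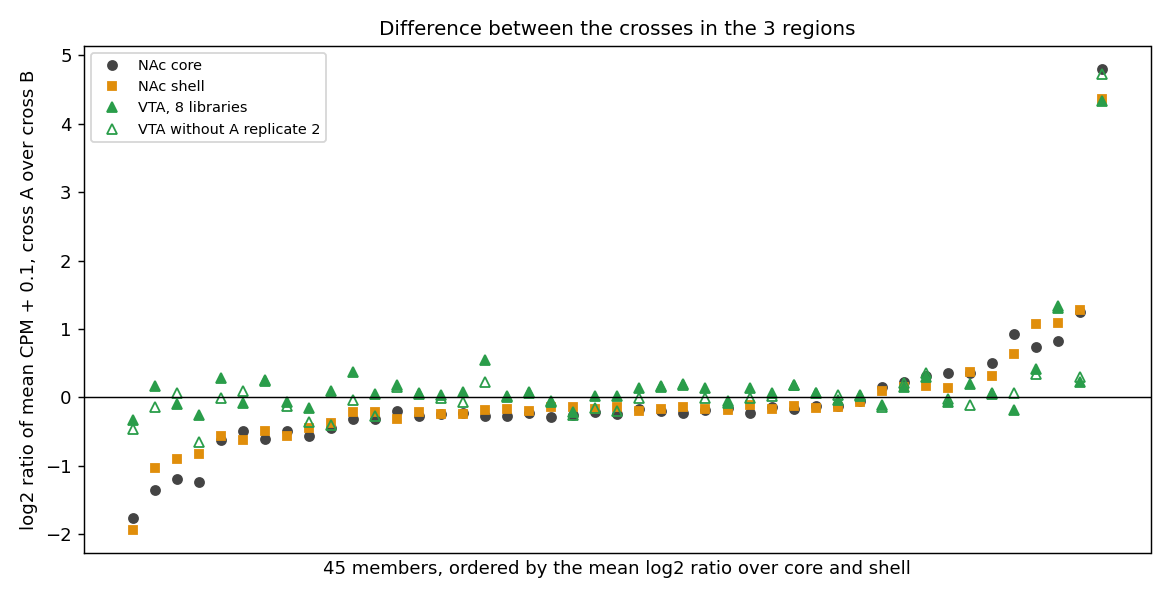
The log2 ratio of mean CPM + 0.1 (cross A over cross B) is plotted for each member in core (circles), shell (squares), VTA (filled triangles) and VTA without A replicate 2 (open triangles), ordered by the mean of core and shell. Core and shell lie on the same side of 0 by construction, and the VTA values lie around 0 for most members, apart from ENSRNOG00000022595 at the far right.

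Over all members, 23 of 45 VTA log2 fold changes had the accumbens sign. These were 15 of 34 lower members, where 43.8% of all tested genes were lower in cross A, and 8 of 11 higher members, where 56.1% of all genes were higher. The lower members had a median VTA log2 fold change of 0.03 and the higher members of 0.16, where the median of all tested genes was 0.03. Without VTA A replicate 2, 29 of 45 had the accumbens sign, 21 of the lower members (45.9% of all genes lower) and 8 of the higher (54.0% higher). The medians were then -0.04 and 0.17, against 0.02 over all genes. In saline-injected rats alone 25 of 34 lower members (48.6% of all genes lower) and 9 of 11 higher members (51.4% higher) had the accumbens sign. In nicotine-injected rats alone, which include VTA A replicate 2, these were 9 of 34 (44.3%) and 5 of 11 (55.5%). The difference between the subsets was not tested.

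Of the 8 VTA libraries, VTA A replicate 2 was the highest for 15 of the 34 lower members. The share of all genes highest in that library was not counted, so this number cannot be read as a trait of the members. The median deviation of VTA A replicate 2 over the 34 lower members was 0.17 on the log2 scale. It was -0.10 to 0.04 in the other VTA libraries of cross A and -0.08 to 0.04 in those of cross B. The same library had the raised level of accumbens-high genes given above, 2070 CPM, and its part in these values was not tested. For the 11 higher members, VTA A replicate 15 stood highest with a median deviation of 0.57.

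**Figure D4:**
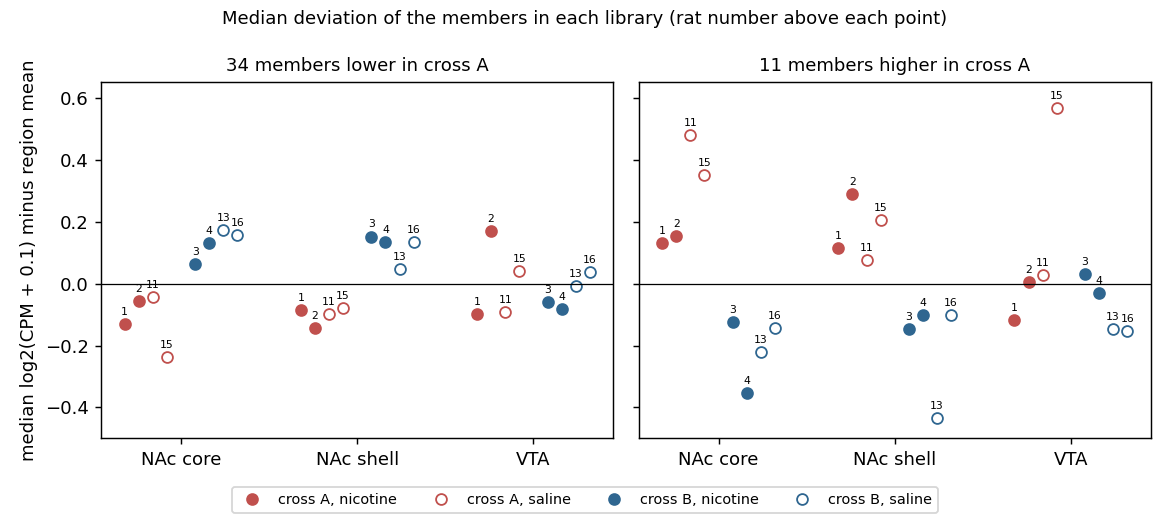
Each point is the median, over the 34 lower members (left) or the 11 higher members (right), of log2(CPM + 0.1) minus the mean of the region's 8 libraries, with rat numbers above the points. Cross A and cross B do not overlap in core and shell, as the rule implies, and overlap in VTA, where rat 2 is the highest library on the left at 0.17 and rat 15 the highest on the right at 0.57.

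The level of the members in VTA was compared with each accumbens part by edgeR's quasi-likelihood test. The rule used that level only in the count filter, which 2 members passed through VTA counts alone, so for them a higher level in VTA was favoured by the filter. Against core, 31 of 45 members were lower in VTA (background 30.7%) and 6 were higher (background 31.1%). Against shell, 30 were lower (background 29.3%) and 8 higher (background 30.5%). The median log2 fold change of the members, VTA over accumbens, was -0.39 against core and -0.34 against shell, and the medians over all tested genes were 0.01 and 0.02. Without those 2 members, a setting chosen after seeing the data, 31 were lower and 5 higher than core, 30 were lower and 6 higher than shell, and the medians were -0.45 and -0.38.

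Of the 34 members lower in cross A, 27 were lower in VTA than in both parts (25.6% of all genes), 1 was higher than in both (25.9%), and 5 passed against neither (30.1%). Of the 11 members higher in cross A, 3 were lower than in both parts, 5 were higher than in both, and 1 passed against neither. The steepest fall was that of ENSRNOG00000057137, whose log2 fold change was -2.34 ± 0.41 against core (SE, edgeR adjusted p = 9.53e-05) and -2.22 ± 0.45 against shell (adjusted p = 0.000412). ENSRNOG00000031222 also fell, by 0.86 and 0.98 on the log2 scale, and ENSRNOG00000002592 fell by 0.66 (adjusted p = 0.0404) and 1.02 (adjusted p = 0.000762). ENSRNOG00000022595 did not pass (adjusted p = 0.708 and 0.993). The 1 lower member that was higher than in both, with log2 fold changes of 3.35 and 2.93, was one of the 2 that passed the filter through VTA, with 21 to 69 counts there and 0 to 10 in the accumbens. Its accumbens values were 0.0766 CPM on average in the core of cross A and 0.306 in that of cross B. With rat as a replicate block, 36 and 38 members passed against core and shell, and without VTA A replicate 2, 37 and 38.

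**Figure D5:**
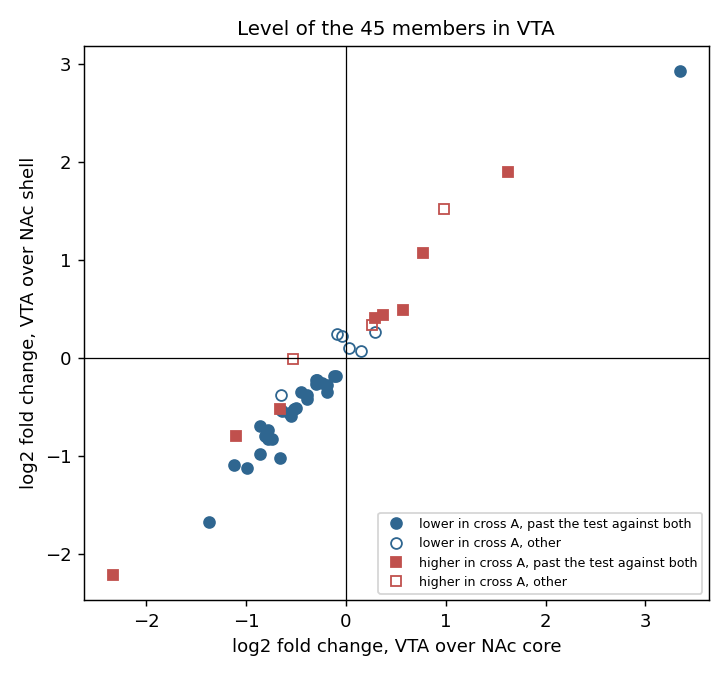
Each point is a member, with its log2 fold change of VTA over NAc core on the horizontal axis and over NAc shell on the vertical axis; circles are lower and squares higher in cross A, filled where the adjusted p was under 0.05 against both parts. Most circles lie at the lower left, below 0 on both axes, with 1 circle at the upper right at 3.35 and 2.93, a member that passed the count filter only through VTA.

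The injections on the first days were compared within each region with cross as a term. In core and shell these are the values the members were selected on: the rule kept the rats of a cross on 1 side of the other cross whatever their injection, which limits how far the injection groups could differ, so the core and shell numbers cannot be read against their backgrounds. At an adjusted p under 0.05, 0 of 45 members differed between nicotine- and saline-injected rats in core, shell or VTA by edgeR, and 0 by DESeq2. The backgrounds were 0.00614%, 0% and 0% of tested genes. At an unadjusted p under 0.05 the numbers were 1, 0 and 0 members, against 7.1%, 2.9% and 1.5% of all genes. The 1 member was ENSRNOG00000031222 in core, given here by its values only. Cross A nicotine rats 1 and 2 had 73.1 and 74.9 CPM against 60.6 and 50.2 CPM in saline rats 11 and 15, while cross B had 90.5 and 107 against 97.1 and 89.3 CPM. Without VTA A replicate 2, 4 members passed the unadjusted level in VTA, against 3.04% of all genes, and 0 the adjusted one.

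Median log2 fold changes by injection were 0.01 in core, 0.02 in shell and -0.01 in VTA over the 45 members, and -0.09 in VTA without VTA A replicate 2. In core and shell, injection and preparation batch cannot be told apart. In VTA, 1 batch held a nicotine-injected and a saline-injected rat (VTA A replicate 2 and VTA B replicate 16), and with batch as a further term 2 members passed the unadjusted level, against 6.96% of all genes, and 0 the adjusted one. That estimate rests on those 2 libraries and on the difference between the crosses within the saline batch.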

How the data were processed

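RNA-seq libraries of 3 brain regions from 8 male F1 rats were analysed from the deposited table of estimated counts per gene, whole numbers without normalization for 17323 Ensembl IDs. As the study's methods describe it, the authors quantified reads with salmon on rat genome Rnor 6 and summed transcripts to genes; the submitters' processing notes name fastp 0.20.0 and Salmon 0.12.0. Salmon shares reads among similar transcripts, so near-identical genes can exchange counts. Sample titles identified each of the 24 columns.

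The members and gene lists were chosen with earlier results of these data known. The planned pathway and cell type lists need symbols, which neither the deposited table nor the reference gene table pairs with the IDs, and were not run here. Members named by ID are at most 2 higher and 2 lower in cross A, by largest mean accumbens log2 ratio among those separating the crosses in VTA without VTA A replicate 2. ENSRNOG00000057137 was added after its values were seen.

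Genes with a median-ratio normalized count over 10 in at least 3 libraries (16289, all 45 members included) entered edgeR 4.0.16 quasi-likelihood fits with TMM normalization in R 4.3.3, two-sided, with Benjamini-Hochberg adjustment over all tested genes. The VTA cross fit used 8 libraries and no covariate, region fits 16 libraries, and injection fits 8 libraries with cross as a term. Standard errors are the fold change divided by the square root of F. Single values were compared by exact permutation. Log2 ratios of means add 0.1 CPM. Floors of 3 counts cover counting error only. Alternatives were DESeq2 1.42.0, other size factors, other filters, injection or batch as covariates, injection subsets, 1 fit over all libraries, leaving out each replicate, and rat as a replicate block.

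Rats are separate animals, and the pairing of regions comes from the shared rat; correlations of same-rat deviations ranged from -0.18 to 0.25. Replicate pairs differed by 5.32 to 134 times the sampling noise in a chi-square of their counts. On counts simulated for the VTA cross comparison (16289 genes, 200 changed), edgeR recovered 0% of 1.3-fold, 48% of 2-fold and 84% of 4-fold changes, with 96 of 102 and 168 of 177 calls true at 2-fold and 4-fold. DESeq2 recovered 3%, 70.5% and 88%, with 6 of 17, 141 of 181 and 176 of 219 calls true.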

Additional observations from a re-analysis of the deposited data

Results flagged for a closer look

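Within groups of 4 libraries, 57 sets of values (the named members and both members reversed in VTA, library totals, accumbens-high genes and the median deviations) were searched for a library far from the other 3, and 6 were found. Chance gives about 1 in 20 for sets not chosen by their values; ENSRNOG00000002592, ENSRNOG00000031222 and both reversed members were chosen by their VTA values, so the 6 cannot be set against that share. VTA A replicate 2 accounts for 3 of them: ENSRNOG00000002592 at 15.1 CPM against 6.35 to 7.52 CPM in the other VTA libraries of cross A, a member that was lower in cross A in the accumbens at 20.6 CPM against 9.83 to 11.1 CPM, and the 64 accumbens-high genes at a sum of 2070 CPM. In NAc shell, ENSRNOG00000031222 stood at 85.0 CPM in A replicate 11, and B replicate 13 lay closest to cross A with a median deviation of 0.046 over the lower members and furthest from it with -0.43 over the higher members.

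Both members that separated the crosses in VTA in reverse of the accumbens had log2 ratios of mean CPM in VTA of 0.55 and 0.15 (A over B). The difference between regions was not tested.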

How the results depend on the processing

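The members rest on a strict ordering of 8 rats, so small changes of scale exchange some of them. Most members differed by less than 2-fold in the accumbens, and of simulated 1.3-fold changes in VTA edgeR recovered 0% and DESeq2 3%. With no limit on core over shell or no count filter, the rule found 46 genes. Members separating the crosses in VTA in the accumbens direction rose from 0 to 2, both lower members, with TMM-normalized sizes and to 2 with median-ratio size factors (1.96% and 1.72% of all genes), and ranged from 0 to 3 when 1 replicate was left out, where 2.92% to 7.31% of all genes lay fully higher and 1.64% to 3.9% fully lower in cross A. The number at adjusted p under 0.05 in VTA was 1 by DESeq2 and 0 under the other 16 settings. The number at unadjusted p under 0.05 in the accumbens direction, 2, became 5 in 1 fit over all 24 libraries. These were 3 higher against 8.21% of all genes and 2 lower against 4.81%, with 4 members in the opposite direction. The number was 6 in saline-injected rats alone, 2 higher (2.23%) and 4 lower (0.792%). In nicotine-injected rats alone it was 1, a higher member (3.04%), with 0 lower (2.35%) and 1 higher member in the opposite direction. With 1 replicate left out it ranged from 1 to 5, where 1.84% to 6.7% of all genes passed as higher and 0.675% to 4.36% as lower. VTA log2 fold changes with the accumbens sign (settings chosen after seeing the data) fell from 23 to 14 in nicotine-injected rats alone and ranged from 18 to 29 with 1 replicate left out. In nicotine-injected rats alone, ENSRNOG00000002592 and ENSRNOG00000031222 reversed to log2 fold changes of 0.12 and 0.11. The cause of these shifts was not tested. The rat as a replicate block gave 36 members differing between VTA and core and 38 between VTA and shell, and changed no count of calls by over 1.5 times. The region counts ranged from 31 to 39 and from 35 to 38 with 1 rat left out. The injection counts at adjusted p under 0.05 were 0 under every alternative run, including batch as a term in VTA (chosen after seeing the data).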
